A study of Mus musculus with 342 samples.

Results

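The genes H2-Aa, H2-Ab1 and Cd74 encode the core of classical MHC class II, and their liver levels were followed in 342 arrays from male Collaborative Cross mice. They are 3 of 9093 genes with a probe set that names 1 gene. A probe set is a group of array probes designed against 1 transcript. The 3 genes were chosen by name, as all probe sets whose platform symbol is exactly 1 of them, which gave 5 probe sets. For H2-Ab1, with 3 probe sets, the one with the highest mean over all arrays was used and the other 2 served as a check.

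Mice of 44 lines received a single oral gavage of TAK-875 (fasiglifam) at 600 mg/kg, and reference mice received 0 mg/kg, the vehicle being 0.5% methylcellulose in water. The lines are a panel of recombinant inbred mice derived from genetically diverse founders, and the mice were about 8 to 10 weeks old. TAK-875 activates GPR40, a receptor for fatty acids, and its development as a diabetes drug ended because of liver injury. Livers were taken 24 hours after dosing. The compound is named as in the sample labels, whereas the series title carries a different number. Treatment was given in matched pairs within a line, giving 171 study pairs, with 4 pairs in 39 lines and 3 pairs in 5 lines. The labels speak of 45 lines, and 1 of them was not analysed here.

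MHC class II molecules are dimers of an alpha and a beta chain that show peptides from endocytosed proteins to CD4+ T cells. Cd74, the invariant chain, holds new dimers and guides them to endosomes, where proteases digest it and H2-DM exchanges its last fragment for a peptide. Dendritic cells, B cells and macrophages carry most class II in liver, the resident macrophages being Kupffer cells, and interferon gamma raises it through the transactivator Ciita.

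Class II genes share a promoter layout of an X box, an X2 box and a Y box, to which the RFX complex, CREB and NF-Y bind. The stretches below run from 130 to 31 bases before the annotated start (RefSeq, GRCm38.p6) and are shown because these class II genes fell with TAK-875 and differ in which of these letters they hold. The capitals mark the letters CTAGCAAC (X box core), TGACGTCA (X2 box) and CTGATTGG (Y box), or in H2-DMb1, which holds none of these 3, the shorter GATTGG.
H2-Aa, chr17:34287854-34287953, minus strand: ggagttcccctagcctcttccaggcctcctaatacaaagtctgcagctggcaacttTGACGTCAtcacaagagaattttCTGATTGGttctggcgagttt
H2-Eb1, chr17:34305737-34305836, plus strand: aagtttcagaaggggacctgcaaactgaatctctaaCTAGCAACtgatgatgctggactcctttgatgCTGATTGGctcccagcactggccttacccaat
H2-DMb1, chr17:34153061-34153160, plus strand: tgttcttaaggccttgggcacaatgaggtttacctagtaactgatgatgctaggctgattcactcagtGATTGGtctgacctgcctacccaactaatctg
Both strands of all 32851 promoter windows of the table, each from 250 bases before to 50 after a start, were searched. CTAGCAAC was in 1.32% of windows, TGACGTCA in 1.79% and CTGATTGG in 4.10%, while GATTGG, which lies within CTGATTGG, was in 16.1%. CTGATTGG together with either of the first 2 was in 0.131% of windows, among them those of H2-Aa and H2-Eb1. Of the 7 measured class II genes, 4 had a window among those searched, while H2-Ab1, H2-Ea and Cd74 had none. Beside H2-Aa and H2-Eb1 the 4 were H2-DMa and H2-DMb1, which held GATTGG but none of the 3 longer motifs. No window held all 3 among these genes, as H2-Aa lacked CTAGCAAC and H2-Eb1 lacked TGACGTCA. In H2-Aa the X2 letters began 74 bases and the Y letters 51 bases before the start. In H2-Eb1 the X core began 94 bases and the Y letters 62 bases before it. These matches describe the sequence and show no binding.

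Values are the deposited log2 expression values, so a difference of 1 is a factor of 2 and levels of different genes are not set against each other. Array medians lay between 5.40 and 6.22. Arrays were compared with those of the same line and treatment, and their median correlation was 0.975. This was under 0.95 for 17 TAK-875 and 9 vehicle arrays, and results are also given without the 24 pairs that hold them, which leaves 147 pairs in 42 lines. No scan date or other batch is given in the labels. Hepatocyte markers were high with either treatment, Alb (albumin) averaging 13.5 in TAK-875 and 13.5 in vehicle livers. Levels in whole liver cannot tell fewer cells of a type from less RNA per cell.

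H2-Aa encodes the alpha chain of the H2-A dimer. Its line means averaged 6.33 ± 0.81 with TAK-875 and 6.68 ± 0.88 with vehicle (SD, n = 44 lines). Single arrays ran from 4.59 over a median of 6.26 to 9.08 with TAK-875, and from 4.57 over a median of 6.70 to 9.59 with vehicle. The groups overlapped almost throughout when lines were pooled, so the comparison was made within pairs. H2-Aa fell by 0.35 on the log2 scale (SD 0.31 over 44 lines, 95% confidence interval -0.44 to -0.25), to 78.7% of vehicle (limma adjusted p = 4.9e-08). It was lower in 38 of 44 lines and in 122 of 171 pairs, and pair differences ran from -1.90 over a median of -0.38 to 1.78.

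H2-Ab1 encodes the beta chain that pairs with H2-Aa. Its line means averaged 6.88 ± 1.27 with TAK-875 and 7.37 ± 1.16 with vehicle (SD, n = 44 lines). Single arrays ran from 3.20 over a median of 6.93 to 10.1 with TAK-875, and from 3.73 over a median of 7.35 to 10.1 with vehicle. Here too the arrays overlapped over most of the range. H2-Ab1 fell by 0.49 on the log2 scale (SD 0.43 over 44 lines, 95% confidence interval -0.62 to -0.36), to 71.2% of vehicle (limma adjusted p = 1.8e-08). It was lower in 39 lines and in 124 pairs, and pair differences ran from -2.73 over a median of -0.44 to 1.81.

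Cd74 encodes the invariant chain. Its line means averaged 6.46 ± 0.81 with TAK-875 and 6.82 ± 0.77 with vehicle (SD, n = 44 lines). Single arrays ran from 4.78 over a median of 6.46 to 9.03 with TAK-875, and from 4.66 over a median of 6.76 to 9.03 with vehicle. Cd74 fell by 0.36 on the log2 scale (SD 0.26 over 44 lines, 95% confidence interval -0.44 to -0.28), to 78.2% of vehicle (limma adjusted p = 6.2e-10). It was lower in 39 lines and in 136 pairs, and pair differences ran from -1.92 over a median of -0.35 to 1.38.

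**Figure D1:**
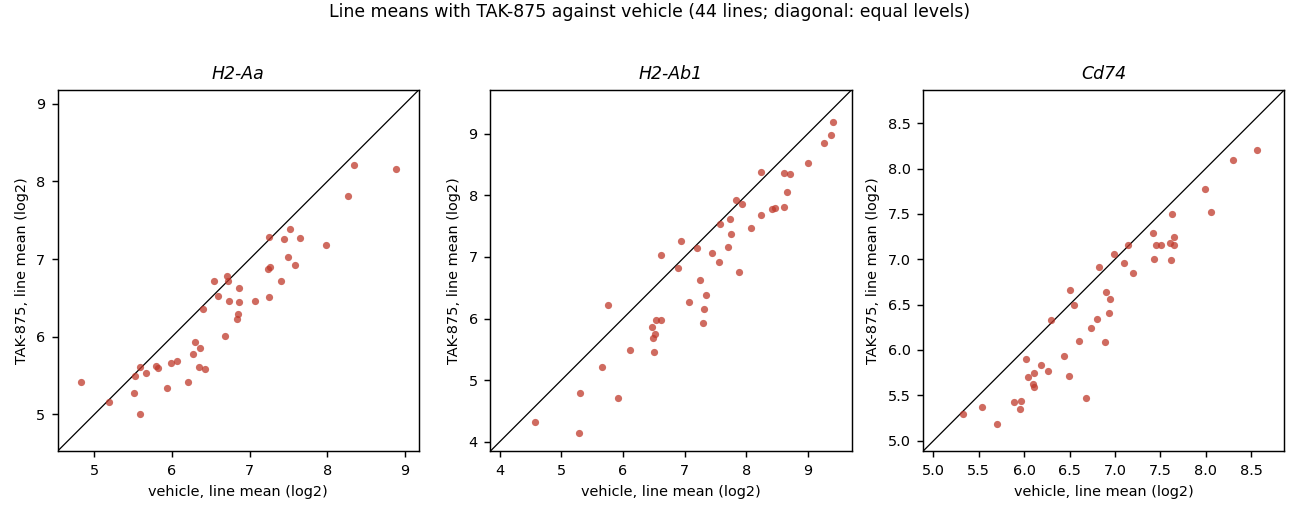
Line means of H2-Aa, H2-Ab1 and Cd74 with TAK-875 (vertical axis, log2) against vehicle (horizontal axis, log2), 1 point for each of 44 lines, with a diagonal of equal levels. Points lie below the diagonal in 38, 39 and 39 lines, and stay close to it along the whole range of vehicle levels.

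All 3 genes thus passed as lower, against 11.9% of all genes tested that were called lower and 15.3% called higher, and a median difference over all genes of 0.01. Lower in at least 38 lines, as each of the 3 was, held for 1.52% of all genes. By size of fall, H2-Ab1 stood 29th, Cd74 71st and H2-Aa 73rd of 9093 genes. The rank of H2-Ab1 holds for the probe set used, as its other probe sets gave smaller falls (-0.27 and -0.33). All 3 were lower together in 33 of 44 lines and in 106 of 171 pairs, and none of them was lower in 1 line and 26 pairs. Without the poorly correlated pairs the differences were -0.32 for H2-Aa, -0.49 for H2-Ab1 and -0.34 for Cd74.

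With the probe set used, H2-Ab1 fell further than the other 2. Its difference was 0.15 further down than that of H2-Aa (SD 0.39, lower in 29 of 44 lines, sign-flip permutation test, adjusted p = 0.0245 over 3 comparisons) and 0.13 further down than that of Cd74 (SD 0.30, lower in 30 lines, adjusted p = 0.0155). H2-Aa and Cd74 differed by 0.01 (SD 0.27, adjusted p = 0.813). With the mean of the 3 H2-Ab1 probe sets, both gaps closed to -0.02 and -0.01 (adjusted p = 0.813 for each). The other probe sets of H2-Ab1 gave -0.27 (limma adjusted p = 1.6e-04, lower in 31 lines) for one whose probes match several transcripts of the gene alone, and -0.33 (adjusted p = 9.9e-04, lower in 32 lines) for one whose class can bind unrelated transcripts. The probe sets used for H2-Aa and H2-Ab1 are marked by the array's design as able to bind related transcripts of a gene family. Probes follow 1 designed sequence each, and the part of sequence differences between lines was not tested.

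The lines differed widely in the baseline level of the 3 genes. Between vehicle line means, H2-Aa spanned 4.83 to 8.88 (16.6-fold), H2-Ab1 4.57 to 9.41 (28.6-fold) and Cd74 5.33 to 8.57 (9.46-fold). The F test of equal vehicle levels gave F = 13.6 for H2-Aa (limma adjusted p = 2.4e-30), 11.5 for H2-Ab1 (adjusted p = 8.6e-27) and 12.9 for Cd74 (adjusted p = 3.5e-29). For H2-Ab1 the range depended on the probe set. It was 8.52-fold for the probe set specific to the gene, from CC019/TauUnc to CC052/GeniUnc, and 16.4-fold for the one that can bind unrelated transcripts, from CC022/GeniUnc to CC017/Unc. Since 98% of all genes passed that test, passing it sets the 3 apart in nothing. Their spread between lines was large, with an SD of 0.85 for H2-Aa, 1.10 for H2-Ab1 and 0.73 for Cd74, against 0.25 for the median gene. Only 2.47%, 1.33% and 3.54% of genes had a larger SD than H2-Aa, H2-Ab1 and Cd74, for H2-Ab1 with the probe set used.

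CC052/GeniUnc was highest in vehicle for all 3 genes. Its 4 TAK-875 mice had H2-Ab1 levels of 8.89, 10.1, 8.28 and 9.48, against 9.81, 9.35, 9.18 and 9.30 in vehicle mice. CC024/GeniUnc came next for each gene, with vehicle means of 8.35 for H2-Aa, 9.38 for H2-Ab1 and 8.30 for Cd74. CC001/Unc ranked 3 for H2-Aa (8.27) and H2-Ab1 (9.27), and CC017/Unc for Cd74 (8.06).

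At the other end, CC022/GeniUnc was lowest for H2-Aa and H2-Ab1. Its TAK-875 mice had H2-Ab1 levels of 4.04, 4.52, 4.64 and 4.10, against 4.70, 4.08, 5.80 and 3.73 in vehicle mice. CC039/Unc was lowest for Cd74 (5.33), second lowest for H2-Aa (5.19) and among the lowest 3 for H2-Ab1 (5.31). CC071/TauUnc was second lowest for H2-Ab1 (5.29) and among the lowest 3 for Cd74 (5.70). CC037/TauUnc was among the lowest 3 for H2-Aa (5.51), and CC019/TauUnc second lowest for Cd74 (5.54).

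**Figure D2:**
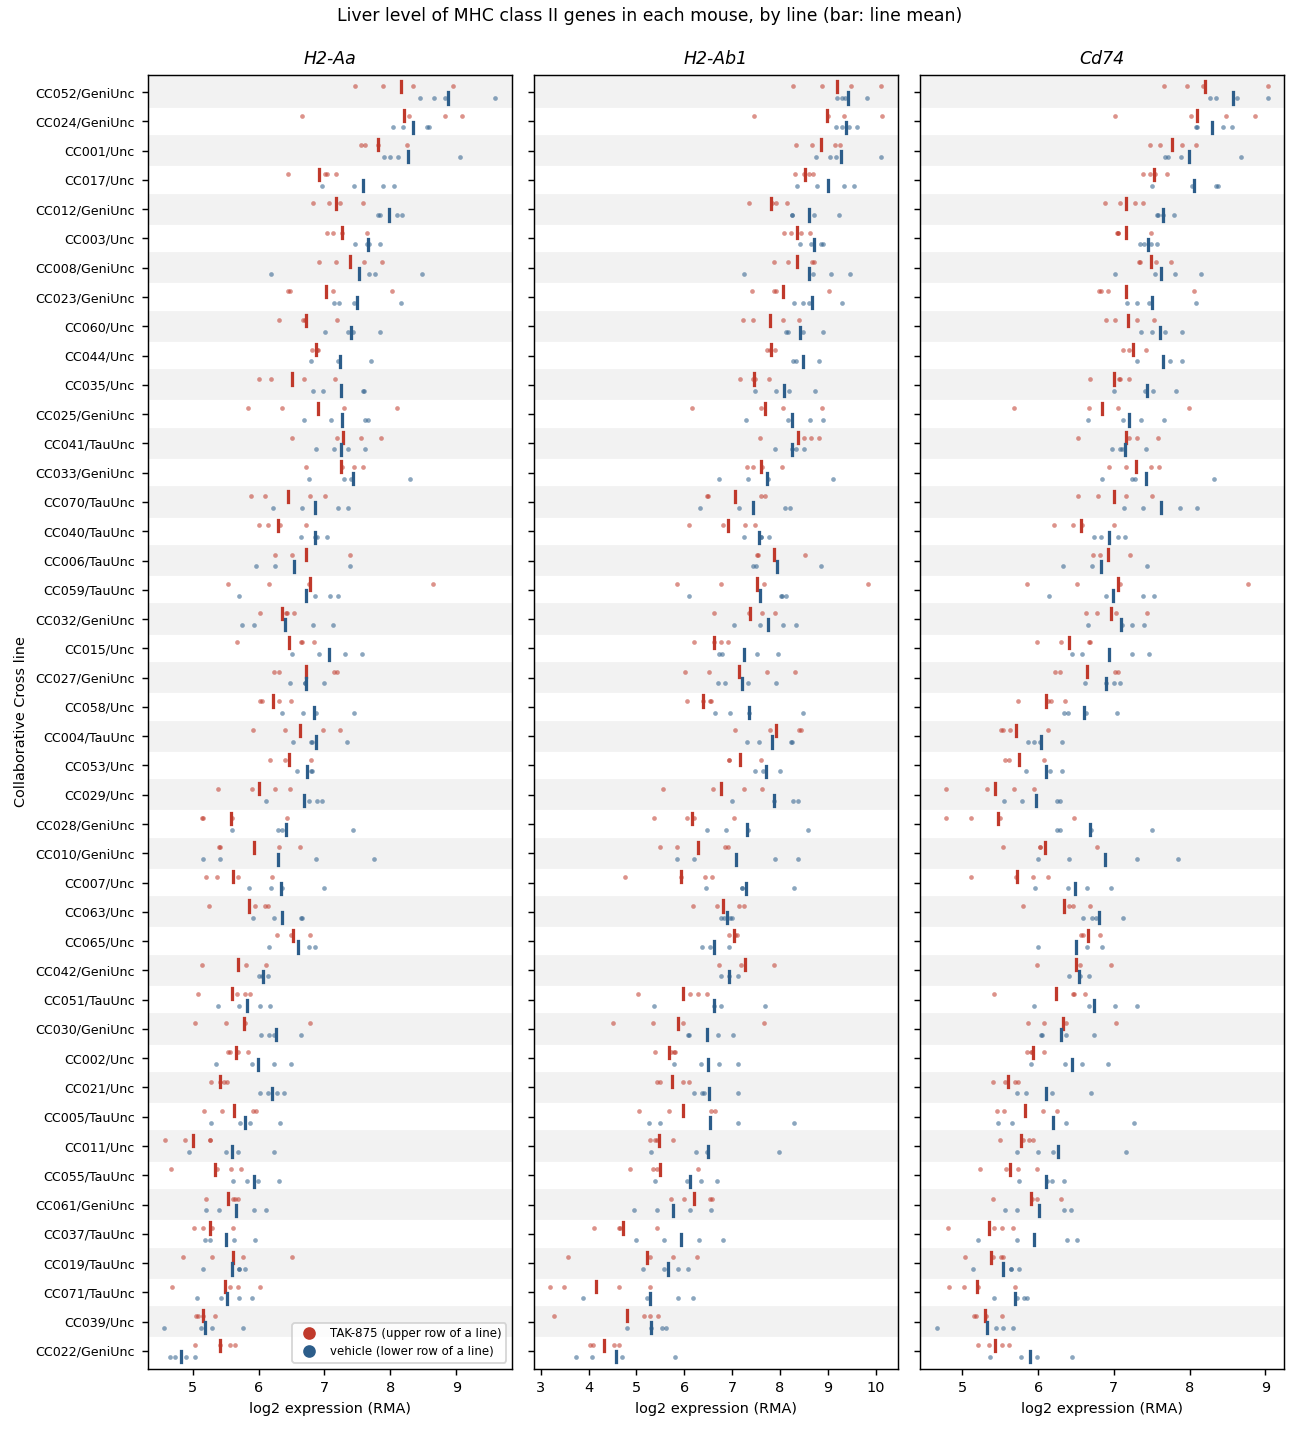
Level of H2-Aa, H2-Ab1 and Cd74 (horizontal axes, log2) in each mouse, with the 44 lines down the page ordered by their mean vehicle level over the 3 genes; red points in the upper row of a line are TAK-875 mice, blue points in the lower row vehicle mice, and bars are line means. CC052/GeniUnc, CC024/GeniUnc and CC001/Unc stand at or near the top for every gene. Some lines, such as CC029/Unc, CC004/TauUnc and CC053/Unc, stand lower for Cd74 than for the other genes. These named lines hold the last study pair numbers, 169 to 179, so line and place in the numbering cannot be told apart.

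Lines next to each other in this order did not separate. For each gene, vehicle arrays of all 43 neighbouring lines overlapped, and the gap exceeded the within-line SD (0.48, 0.69 and 0.43 for H2-Aa, H2-Ab1 and Cd74) at 1, 1 and 0 places. Sorting lines by mean vehicle level places those with close means side by side, so overlap of neighbours says little by itself. Of 946 possible line pairs, vehicle arrays did not overlap in 456 for H2-Aa, 429 for H2-Ab1 and 447 for Cd74. Shares over all genes are not given for these counts, and whether the counts are unusual was not tested.

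Vehicle levels of the 3 genes followed each other over the 44 lines. Pearson's r was 0.95 (rho = 0.94) for H2-Aa and H2-Ab1, 0.89 (rho = 0.87) for H2-Aa and Cd74, and 0.87 (rho = 0.85) for H2-Ab1 and Cd74. Levels in TAK-875 mice tracked those of the vehicle mice of the same line, with r = 0.94 (rho = 0.93) for H2-Aa, 0.94 (rho = 0.94) for H2-Ab1 and 0.95 (rho = 0.95) for Cd74. All 6 had a permutation p of 1e-05 for r and for rho, the smallest that 100000 resamples give, or 1.7e-05 after adjustment over the 12 correlations computed. Without the 2 lines farthest from the median, r lay between 0.87 and 0.94. Pairs of genes were read from the same arrays, whereas TAK-875 and vehicle levels came from different mice.

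The response to TAK-875 was not shown to differ between lines for any of the 3. The F test of equal responses gave F = 0.74 for H2-Aa (limma adjusted p = 0.888), 0.79 for H2-Ab1 (adjusted p = 0.835) and 0.84 for Cd74 (adjusted p = 0.777), while 16.2% of all genes passed it. The estimated SD of the response between lines was 0 for all 3, as it was for 13.8% of genes, and 0.12 for the median gene. Pair differences within a line were scattered, with an SD of 0.72 for H2-Aa, 0.95 for H2-Ab1 and 0.56 for Cd74, against 0.42 for the median gene. Each line rests on 3 or 4 pairs, and a p that misses the threshold does not show that the lines responded alike.

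**Figure D3:**
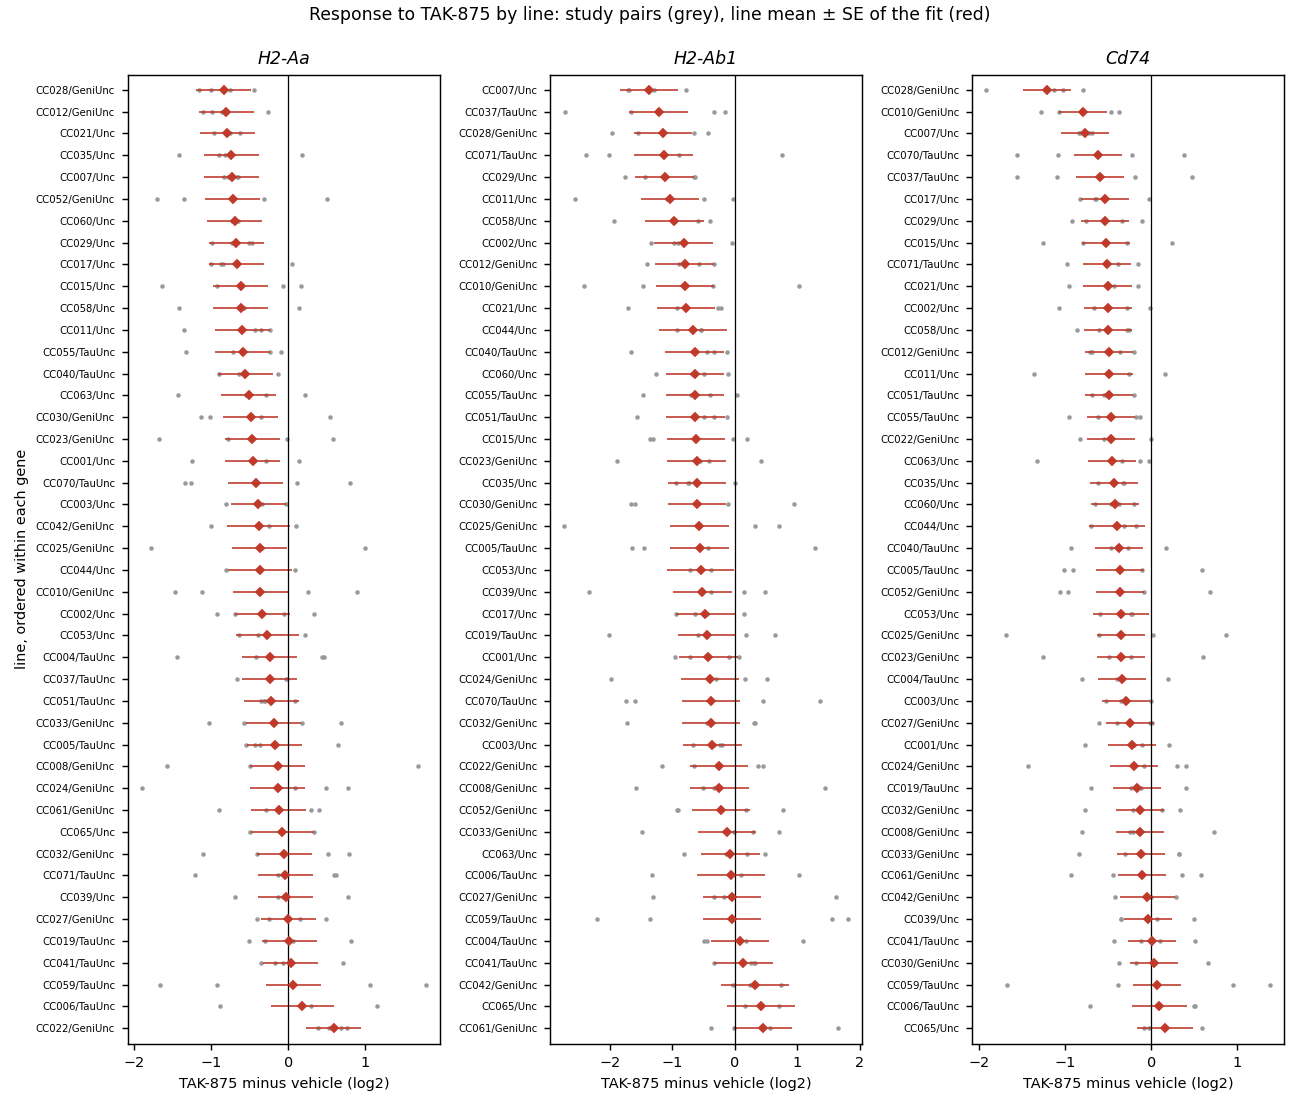
TAK-875 minus vehicle (horizontal axes, log2) by line, ordered within each gene; grey points are study pairs, red diamonds line means with the SE of the fit. Most line means lie below 0, and pairs of 1 line often lie on both sides of it.

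Cd74 in CC028/GeniUnc was the only call within a line for the 3 genes. Its Cd74 levels were 4.79, 5.12, 5.49 and 6.47 in TAK-875 mice, against 6.70, 6.24, 6.29 and 7.50 in vehicle mice, and each pair was lower. The difference was -1.22 (limma adjusted p = 0.00577). Against a background of 0.749% of gene and line combinations called lower, the 3 genes gave 1 call in 44 lines for Cd74 and 0 for H2-Aa and H2-Ab1. At an unadjusted p, CC028/GeniUnc gave 0.0201 for H2-Aa (difference -0.84) and 0.0153 for H2-Ab1 (difference -1.15). The Cd74 call was lost without the poorly correlated pairs, where 0 lines were called for Cd74.

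CC007/Unc had the largest mean fall of H2-Ab1. Its H2-Ab1 levels were 4.75, 5.92, 6.59 and 6.43 in TAK-875 mice, against 6.45, 7.21, 8.30 and 7.22 in vehicle mice. The groups overlapped, yet every pair was lower, by -1.37 on average (limma adjusted p = 0.0678). CC037/TauUnc followed with -1.22, of which 1 pair gave -2.71 and another -0.16. For H2-Aa, CC012/GeniUnc had -0.80 and CC021/Unc -0.79, and for Cd74 CC010/GeniUnc had -0.80 and CC007/Unc -0.77.

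In CC012/GeniUnc all TAK-875 mice lay below all vehicle mice for each of the 3 genes. H2-Aa levels there were 7.07, 6.83, 7.24 and 7.58 with TAK-875, against 8.17, 7.81, 8.10 and 7.84 with vehicle. Such full separation downwards occurred in 2 lines for H2-Aa, 4 for H2-Ab1 and 1 for Cd74, where 3.39% of all gene and line combinations separated this way. Separation upwards occurred in 1 line for H2-Aa, 1 for H2-Ab1 and 0 for Cd74, where 3.92% of combinations did. The downward count of H2-Ab1 was above the background share of 44 lines and the other counts were near it or below, and no test was made of this.

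The upward separation of H2-Aa was in CC022/GeniUnc, the line with the lowest vehicle level of H2-Aa. H2-Aa levels there were 5.56, 5.04, 5.65 and 5.41 with TAK-875, against 5.03, 4.65, 4.89 and 4.73 with vehicle, a difference of 0.59 that did not pass within the line (limma adjusted p = 0.999). The other two genes were lower there, by -0.25 for H2-Ab1 and by -0.47 for Cd74. In CC065/Unc, with 3 pairs, H2-Ab1 separated upwards narrowly, with 6.94, 7.10 and 7.07 in TAK-875 mice, against 6.55, 6.94 and 6.36 in vehicle mice. The lowest TAK-875 value was 6.944 and the highest vehicle value 6.939. The difference of 0.42 did not pass within the line (limma adjusted p = 0.836).

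Other positive line means were small or scattered. H2-Ab1 averaged 0.45 in CC061/GeniUnc, where 1 pair reached 1.65, and 0.32 in CC042/GeniUnc. CC006/TauUnc gave 0.18 for H2-Aa and 0.09 for Cd74, and CC065/Unc gave 0.16 for Cd74. CC059/TauUnc averaged 0.06 for H2-Aa and 0.06 for Cd74, but its H2-Aa pairs gave -0.92, 1.78, -1.67 and 1.06, the widest scatter of any line named here.

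Line responses of the 3 genes went together less closely than their levels. Pearson's r was 0.49 (rho = 0.55, adjusted permutation p = 8.4e-04 for r) for H2-Aa and H2-Ab1, 0.55 (rho = 0.59, adjusted p = 2.5e-04) for H2-Aa and Cd74, and 0.72 (rho = 0.76, adjusted p = 1.7e-05) for H2-Ab1 and Cd74. Without the 2 farthest lines, r was 0.50, 0.63 and 0.69 in that order. Without the poorly correlated pairs it was 0.76, 0.80 and 0.86. The 3 genes were read from the same arrays, and the estimated SD of their response between lines was 0. Scatter of single arrays thus enters these r values, which do not show that lines responded differently.

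Of the 11 genes listed as MHC class II molecules, 7 were measured. Of these 6 fell and none rose, against 11.9% and 15.3% of all genes. Beside H2-Aa, H2-Ab1 and Cd74 the falls were H2-Eb1, H2-DMa and H2-DMb1, 3 of the 4 other measured genes. The median over the 7 was -0.35. H2-Eb1, the beta chain of the second class II dimer, fell by 0.36 (limma adjusted p = 3.5e-06, lower in 35 lines). H2-DMa and H2-DMb1, the chains of the peptide exchanger H2-DM, fell by 0.26 (adjusted p = 0.00181, lower in 34 lines) and by 0.13 (adjusted p = 0.0152, lower in 30 lines). The probe set of H2-DMa is of the class that can bind unrelated transcripts. H2-Ea, the alpha chain that pairs with H2-Eb1, differed by -0.07 (adjusted p = 0.274), lower in 24 lines and higher in 20. The median of its vehicle line means was 4.73, and at such low levels a fall may not show. In every line with a vehicle mean of at least 6.40 it was lower, from -0.22 in CC024/GeniUnc to -0.75 in CC007/Unc. CC053/Unc, with a vehicle mean of 6.02, gave 0.38. That cut was set after the values were seen, and the vehicle mean enters the difference. Whether the difference follows the level was not tested. The count of falls among the 7 was also 6 without the poorly correlated pairs.

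H2-Ea and H2-Eb1 had another order of lines. H2-Eb1 vehicle means ran from 3.62 in CC019/TauUnc to 9.30 in CC024/GeniUnc (51.2-fold), and correlated with H2-Ab1 over the 44 lines by r = 0.56. H2-Ea vehicle means ran from 4.05 in CC006/TauUnc to 7.71 in CC060/Unc, with r = 0.23. Unlike the 3 genes, H2-Ea passed the F test of unequal responses between lines (F = 2.00, limma adjusted p = 0.0212). Its only call within a line was in CC007/Unc, with a vehicle mean of 6.62 and a difference of -0.75 (limma adjusted p = 0.0277). Within CC028/GeniUnc, H2-Eb1 had a difference of -1.49 (adjusted p = 0.0043) beside the Cd74 call. H2-Eb1 was also called in CC010/GeniUnc (-1.11, adjusted p = 0.046). H2-DMb1 was called in CC007/Unc (-0.77, adjusted p = 0.0199) and CC053/Unc (-0.83, adjusted p = 0.0382), and H2-DMa in no line. Of all gene and line combinations, 0.749% were called lower.

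Some genes of peptide loading passed the test, and those of class II transcription did not. None of 5 measured genes of class II transcription, among them Rfx5 and Rfxap of the RFX complex and Nfyb of NF-Y, passed the test. Over all genes 11.9% fell and 15.3% rose, so that none of 5 does not set this list apart. Its median was 0.06, and Ciita was not analysed here. Of 7 proteases and reductases of peptide loading, 2 fell and 2 rose, against 11.9% and 15.3% of all genes that fell and rose. Ctss, the cathepsin that cleaves the invariant chain, fell by 0.24 (limma adjusted p = 6.4e-06, lower in 37 lines) and Ctsb by 0.12 (adjusted p = 1.0e-08), while Ctsl rose by 0.11 (adjusted p = 0.0378). Both rises of that list, Ctsl and Ctsd, were lost when arrays were centred on their medians.

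Of 5 measured genes for turnover and partners, 1 fell and 2 rose, against 11.9% and 15.3% of all genes. Cd44, which binds with Cd74 at the cell surface, fell by 0.10 (limma adjusted p = 0.0342). Marchf8, a ubiquitin ligase, rose by 0.13 (adjusted p = 0.0131), and Ddt, a relative of the Cd74 ligand Mif, by 0.05 (adjusted p = 0.0136), a call lost when arrays were centred (adjusted p = 0.219). Of 11 measured interferon gamma genes, Cxcl9, a chemokine induced by interferon gamma, fell by 0.54 (adjusted p = 2.0e-07, lower in 37 lines). The other 10 did not pass, where 11.9% of all genes fell and 15.3% rose. Irf1 differed by -0.07 (adjusted p = 0.288). With arrays centred on their medians 3 of the list fell, adding Irf2 (-0.11, adjusted p = 0.0349) and Jak2 (-0.11, adjusted p = 0.0469). Of 16 measured genes of MHC class I presentation, 4 fell and none rose, against 11.9% and 15.3% of all genes, led by the immunoproteasome subunit Psmb8 (-0.31, adjusted p = 1.4e-07), with the proteasome activators Psme2 (-0.14, adjusted p = 1.5e-05) and Psme1 (-0.12, adjusted p = 1.4e-04). The class I heavy chain H2-K1 differed by -0.09 (adjusted p = 0.139). Without the poorly correlated pairs the call of Psmb10 was lost (adjusted p = 0.414). With arrays centred on their medians Erap1 was called as well (-0.13, adjusted p = 0.0233).

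**Figure D4:**
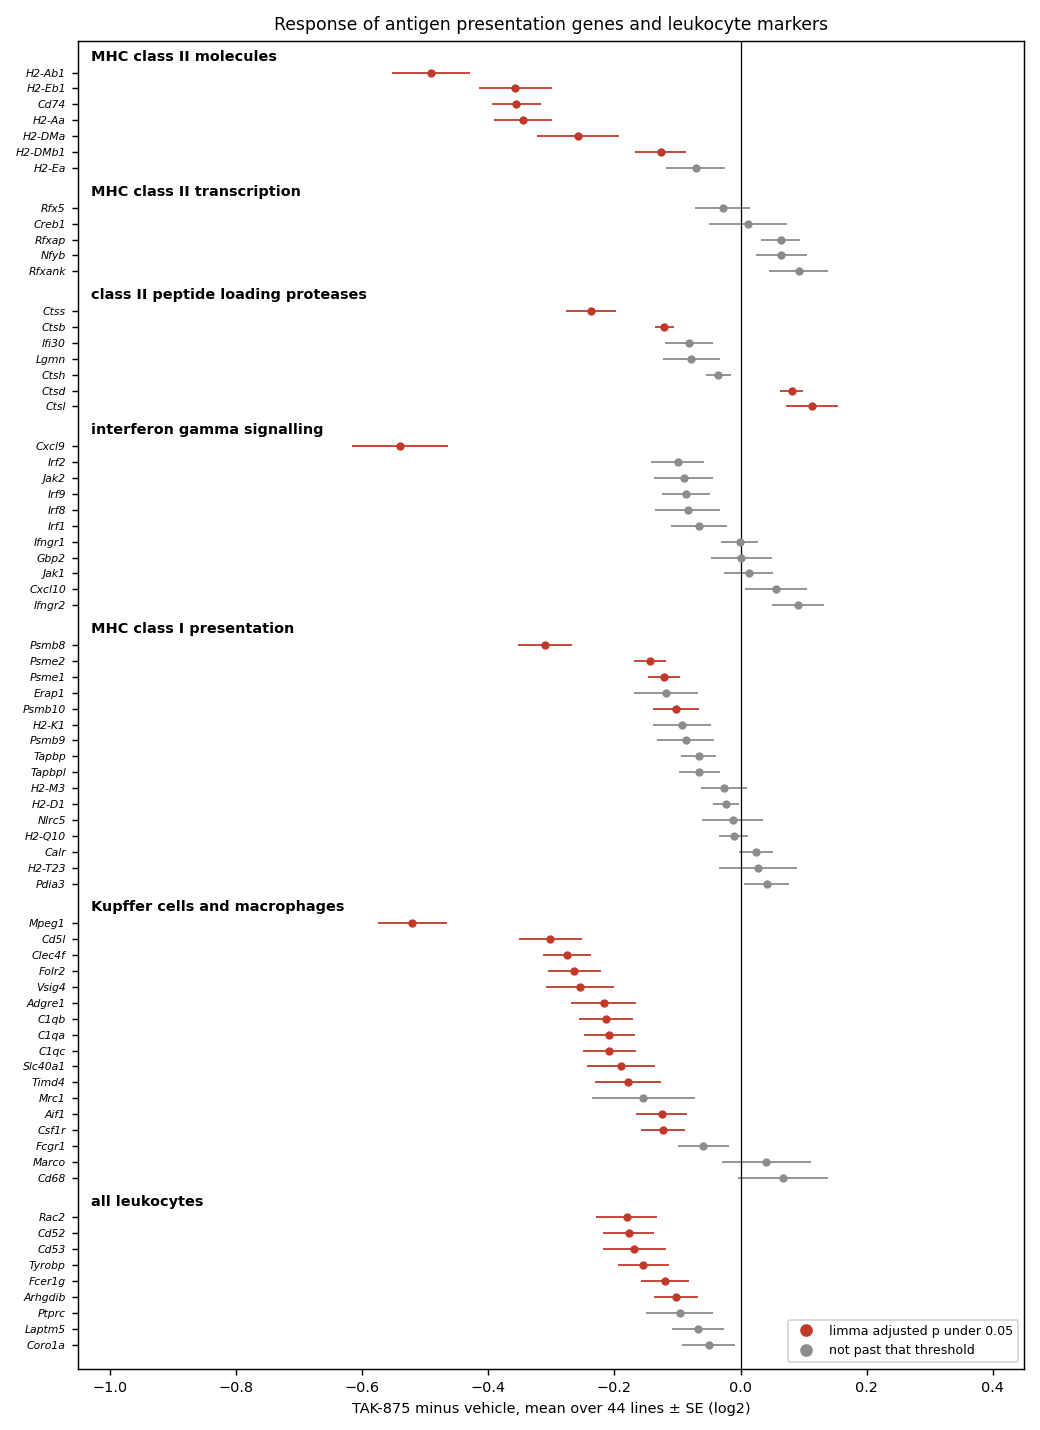
TAK-875 minus vehicle (horizontal axis, log2, mean over 44 lines with SE) of genes in 7 lists, red where the limma adjusted p is under 0.05. The class II molecules and the Kupffer cell markers lie mostly left of 0, and the class II transcription genes lie around 0.

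Macrophage and general leukocyte markers fell alongside the 3 genes, as did some endothelial and stellate cell markers. The part of these cells in the fall was not tested. Of 18 Kupffer cell and macrophage markers 17 were measured, 13 fell and none rose, with a median of -0.21, where 11.9% of all genes fell and 15.3% rose. Mpeg1, a pore-forming protein of macrophages, fell by 0.52 (limma adjusted p = 2.3e-10), Cd5l by 0.30 (adjusted p = 4.9e-06) and the Kupffer cell lectin Clec4f by 0.28 (adjusted p = 1.7e-07). The summed level of the list ran from 10.5 to 12.7 with TAK-875 and from 10.9 to 13.3 with vehicle (log2 of summed linear values over arrays). The dimmest marker was Timd4, at a mean of 3.29 with TAK-875 and 3.47 with vehicle, and the scale has no level of 0. Without the poorly correlated pairs 10 of the 17 fell.

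Of 10 general leukocyte markers 9 were measured and 6 fell, while none rose, against 11.9% and 15.3% of all genes. The largest were Rac2 (-0.18, limma adjusted p = 0.00355), Cd52 (-0.18, adjusted p = 6.0e-04) and Cd53 (-0.17, adjusted p = 0.00907). Their summed level ran from 7.75 to 10.1 with TAK-875 and from 8.11 to 11.2 with vehicle. Without the poorly correlated pairs the call of Arhgdib was lost (limma adjusted p = 0.14). The lists for the other carriers were thinly measured. Of 16 dendritic cell markers 3 were measured, and Cst3, which many cells express, fell by 0.06 (adjusted p = 0.0112). With vehicle Cst3 averaged 10.6, Kmo 9.56 and Zbtb46 4.45, and which liver cells gave these signals was not tested. Of 13 B cell markers 2 were measured, of which Jchain fell by 0.14 (adjusted p = 5.8e-05) and Cd79a differed by -0.12 (adjusted p = 0.215). The summed level of dendritic markers ran from 10.3 to 11.8 with TAK-875 and from 10.4 to 11.8 with vehicle, and that of B cell markers from 3.88 to 6.96 with TAK-875 and from 4.21 to 7.88 with vehicle.

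Of the remaining marker lists, 1 of 3 measured monocyte genes, 0 of 1 for T and NK cells, 5 of 14 for endothelium, 3 of 9 for stellate cells, 0 of 5 for neutrophils and 2 of 9 for hepatocytes fell, where 11.9% of all genes did. The endothelial markers Stab2 (-0.26, limma adjusted p = 9.4e-09), Dnase1l3 (-0.24, adjusted p = 1.9e-07) and Clec4g (-0.20, adjusted p = 7.6e-07) fell about as far as Clec4f. The stellate cell marker Col3a1 fell by 0.29 (adjusted p = 4.4e-06), a call lost without the poorly correlated pairs (adjusted p = 0.089). Only the hepatocyte list held a rise, Apoa1 with 0.06 (limma adjusted p = 1.9e-05), which was lost when arrays were centred on their medians (adjusted p = 0.0662). Some falls of the endothelium, stellate cell and hepatocyte lists were lost without the poorly correlated pairs. With arrays centred the endothelium list gained some.

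Over the 44 lines, the mean response of the 3 genes correlated with that of the Kupffer cell list by r = 0.36 (rho = 0.44, permutation p = 0.0156 and 0.0034, adjusted p = 0.017 and 0.00408). Without the 2 farthest lines r was 0.39. With the general leukocyte list r was 0.40 (rho = 0.42, permutation p = 0.00728 and 0.00534, adjusted p = 0.00874 and 0.00583) and 0.32 without the 2 farthest lines. With the 3 dendritic cell markers r was -0.03 (rho = -0.03, permutation p = 0.853 and 0.843, adjusted p = 0.853 and 0.843). As the source cells of these 3 were not tested, that r may not describe dendritic cells. These values come from the same arrays, so that any shift of an array enters both sides. When arrays were centred on their medians, r was 0.33 for Kupffer cells and 0.38 for leukocytes.

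**Figure D5:**
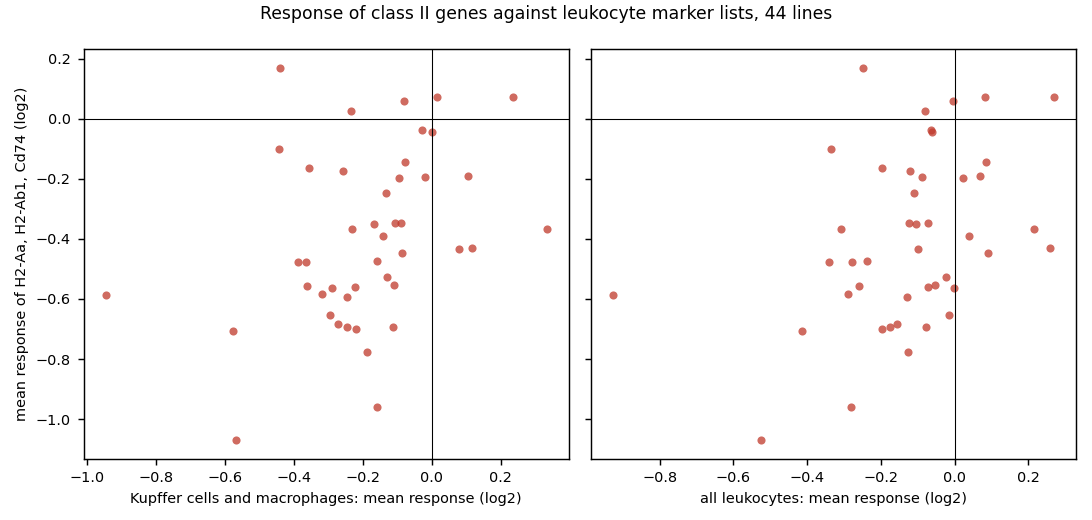
Mean response of H2-Aa, H2-Ab1 and Cd74 (vertical axis, log2) against the mean response of Kupffer cell and macrophage markers (left) and general leukocyte markers (right), 1 point for each of 44 lines. The points slope upwards loosely, with r = 0.36 on the left and 0.40 on the right.

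The genes whose vehicle level was most like that of each gene over the 44 lines were named by Pearson's r. For H2-Aa they were H2-DMa (0.75), Cxcl9 (0.67), Ctss (0.65), Fcer1g (0.59) and Ptprc (0.59). For H2-Ab1 they were H2-DMa (0.78), Cxcl9 (0.67), Ptprc (0.59), Itgal (0.57) and H2-Eb1 (0.56), and for Cd74 Ctss (0.65), Cxcl9 (0.63), Ltb (0.61), Cib3 (0.59) and H2-DMa (0.58). Fcer1g is an Fc receptor chain, Ptprc the leukocyte antigen CD45, Itgal an integrin of leukocytes and Ltb lymphotoxin beta. The H2-DMa probe set can, by its class, bind unrelated transcripts. By likeness of response to the mean of the 3 genes, the first 10 were H2-DMa (0.69), C1ra (0.69), Myo7a (0.64), Rnf19b (0.63), Ndfip1 (0.60), Slc2a9 (0.60), 9430038I01Rik (0.59), Aqp1 (0.59), H2-Eb1 (0.59) and Ptdss1 (0.58). Of these, C1ra, which encodes a complement protease, fell by 0.13 (limma adjusted p = 1.5e-06), and H2-DMa, H2-Eb1 and Ptdss1 fell too (Ptdss1 difference -0.08, adjusted p = 0.0186). Rnf19b rose by 0.10 (adjusted p = 0.00748) and 9430038I01Rik by 0.09 (adjusted p = 0.0472), and the other 4 did not pass. These responses were read from the same arrays, so scatter of single arrays enters this likeness too.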

How the data were processed

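RNA from the livers of 342 mice was hybridised to 342 Affymetrix HT MG-430 PM arrays. The deposited values are on the log2 scale, and the submitters' processing notes name RMA and Affymetrix Power Tools, each without a version. Of 16397 probe sets, 13083 name 1 gene, 261 several and 3053 none, and each of 9093 genes took its probe set with the highest mean. No probe set was removed as dim, and the number of arrays limits the precision.

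Tests used limma 3.58.1 in R 4.3.3 (variance trended on mean level, two-sided, Benjamini-Hochberg over all genes, threshold 0.05). Pair differences were averaged in each line and the 44 means tested against 0. Line differences used F tests on 171 pair differences (127 residual degrees of freedom) or 171 vehicle arrays. Permutations numbered 100000 (Python 3.11.15, numpy 2.4.6, pandas 2.3.3), and figures used matplotlib 3.10.9. The fits were tested on simulated data.

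Study pairs come from the labels, which say mice were treated in pairs. Deviations of same-pair arrays correlated by 0.0361 on average, against -0.0117 for other arrays of the line, and 60 of 171 pairs exceeded 0.1. Mice are separate animals, and no arrays were identical.

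The genes, lists and tests were chosen with earlier results of these data known. Named genes were the 3, every called class II molecule, up to 3 called genes of each other pathway list and up to 3 markers of a cell type list by size of change, the 5 genes most like each gene by vehicle level and the 10 by response, and per gene the 3 highest and lowest lines and the 3 largest falls and rises. Genes named beyond that (Timd4, Alb, Apoa1, Cd79a, Irf1, H2-K1, H2-Ea, Rfx5, Rfxap, Nfyb, Irf2, Jak2, Ctsd, Psmb10, Erap1, Arhgdib) were added after their values were seen. Alternatives were other probe sets, array centring, quantile normalization, a filter on dim probe sets, no variance trend, left-out lines, strain pairs or poorly correlated arrays, and other treatments of pairs.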

Additional observations from a re-analysis of the deposited data

Results flagged for a closer look

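In 8 of 234 groups of 4 values from lines with 4 pairs (3.42%), 1 value stood far from the other 3 by Dixon's criterion, where chance gives about 5%. For H2-Aa pair differences, these were 0.64 in CC005/TauUnc (others -0.55 to -0.36), -1.35 in CC011/Unc (others -0.43 to -0.24), 0.044 in CC017/Unc (others -0.999 to -0.84) and 0.0888 in CC051/TauUnc (others -0.36 to -0.30). For H2-Ab1, 1 pair difference in CC041/TauUnc was -0.33, against 0.25 to 0.32 in the others. Among vehicle levels, 1 mouse stood low for H2-Aa in CC019/TauUnc at 5.16 (others 5.70 to 5.80), for H2-Ab1 in CC059/TauUnc at 6.11 (others 8.03 to 8.13) and for Cd74 in CC019/TauUnc at 5.13 (others 5.64 to 5.74). The low mice of CC019/TauUnc were of different pairs.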

How the results depend on the processing

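The mean falls passed under every alternative run, from -0.42 to -0.30 for H2-Aa (55 alternatives, largest limma adjusted p = 2.0e-04), -0.58 to -0.27 for H2-Ab1 (58, 9.9e-04) and -0.41 to -0.32 for Cd74 (55, 2.9e-06). With the replicate block, study pairs as the unit, they were -0.35, -0.50 and -0.36, and without it -0.35, -0.49 and -0.36, so that the pairing changed no call. The H2-Ab1 gap to H2-Aa and Cd74 was -0.0208 and -0.0105 with the mean of probe sets. Lines called for H2-Ab1 became 1 with arrays centred, quantile normalization, the probe set that can bind unrelated transcripts, or without poorly correlated pairs, and ran from 0 to 1 when a strain pair was left out. For Cd74 they became 2 with quantile normalization, 0 without poorly correlated pairs, and 0 to 1 when a strain pair was left out. The correlation with dendritic markers turned to 0.0253 with centring and 0.0225 without poorly correlated pairs. The causes were not tested. Over all genes, 1388 rose and 1078 fell (56.3% of calls higher), against 1052 and 1334 (44.1%) with arrays centred and 1177 and 1383 (46.0%) with quantile normalization. More genes were called with study pairs as the unit (1696 rose and 1371 fell) and without the pairing (1775 and 1418). A correlation with B cell markers was not run, as 2 were measured. Signal over background was not used here, so values near the lowest levels may hold background.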
